A study of Mus musculus with 12 samples.

Results

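The genes examined were 10 genes of the prostaglandin and lipoxygenase pathway, named by symbol: Pla2g4a, Ptgs1, Ptgs2, Ptges, Ptgis, Hpgd, Ptger4, Alox5, Alox5ap and Alox12. All 10 were found among the 49315 genes of the deposited count tables, and all 10 were among the 17416 genes tested. They were measured by RNA-seq in 12 libraries of mouse adult fibroblasts (MAFs), which are primary ear cells of adult female C57BL/6 wild-type (WT) mice and of Bmal1-/- (KO) mice. BMAL1 is a core activator of the circadian clock, and its gene appears in the annotation as Arntl.

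Prostaglandins and leukotrienes are lipid signals made from arachidonic acid, which phospholipases free from membranes. Cyclooxygenases turn arachidonic acid into prostaglandin H2, and terminal synthases turn this into prostaglandin E2, prostacyclin and other prostanoids that act on receptors of the cell surface. Lipoxygenases take the same substrate toward leukotrienes and hydroxy fatty acids. In fibroblasts the inducible cyclooxygenase Ptgs2 is known as an early gene of injury and inflammation, and prostaglandin E2 is part of what senescent fibroblasts secrete.

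There were 4 groups of 3 libraries each, namely control and senescent cells of WT and of KO mice. Senescent cultures had received 20 Gy of X-rays and were collected once senescent, while control cultures were sham irradiated. What the groups shared was culture at 3% oxygen with 10% serum and synchronisation with 100 nM dexamethasone, after which RNA was collected at 12 h. Dexamethasone is a glucocorticoid that resets the clock, and glucocorticoids are known to lower Ptgs2 transcription, so every level below is a level in cells that had been given one. The KO cells came from Bmal1-/- mice, so the gene was already lost in the animals from which they were isolated. Nothing in the labels says that the 3 libraries of a group came from separate animals, so p-values measure the spread between these libraries, which may be technical. The counts of each genotype stood in a table of their own, so genotype and the handling of each table cannot be told apart in KO against WT comparisons.

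Libraries held 23923030 to 31736083 counts. Levels are given in CPM, counts per 1e6 counts of the library, with library totals adjusted by TMM factors, and 3 counts, taken as the detection floor, were worth 0.101 to 0.135 CPM. Arntl was lower in every KO library than in every WT library, but not absent. Its mean was 31.5 CPM in WT control and 13.2 CPM in KO control cells (log2 fold change −1.26, adjusted p 2e-09), and 36.1 CPM in WT senescent and 26.6 CPM in KO senescent cells (−0.44, adjusted p 0.000329). Reads of Arntl thus rose with senescence in KO cells by 1.02 (adjusted p 1.96e-09), and the genotypes were closer in senescent cells (interaction 0.82, adjusted p 7.58e-05), so this check of the KO label was weakest there. The study itself reported loss of the Bmal1 transcript in its KO cells, whereas the counts here cover all exons of the gene. Cdkn1a, the cell cycle inhibitor p21, was higher in every senescent library than in every control library. All 6 fibroblast markers were present. Their sum was 12563.1 to 17238.3 CPM in control and 4894.3 to 7052.2 CPM in senescent libraries, but of the 6 only Col1a1 and Col1a2 had a lower mean in senescent than in control cells in WT as well as KO. Means of Dcn, Lum and Thy1 were higher there in both, and that of Pdgfra was higher in WT and lower in KO cells. The 5 chondrocyte genes (Col2a1, Acan, Sox9, Cnmd, Matn3) were all present and fell with senescence in both genotypes, their sum being 7062.8 to 8694.0 CPM in WT control, 1941.6 to 2257.1 CPM in WT senescent, 4716.1 to 6373.6 CPM in KO control and 631.8 to 732.0 CPM in KO senescent libraries. Smooth muscle and myofibroblast genes summed to 1445.7 to 2346.7 CPM, keratinocyte genes to 9.84 to 19.0 CPM and endothelial genes to 2.21 to 8.57 CPM. The chondrocyte genes moved with every senescence comparison below, and their part in those results was not tested. In such bulk samples, fewer cells of a type and less RNA per cell cannot be told apart.

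In WT cells, senescence was accompanied by higher Ptges, Ptger4, Hpgd and Alox5 and by lower Pla2g4a, Ptgs1, Ptgs2 and Ptgis. In KO cells, Ptges, Ptger4, Hpgd and Alox5 were also higher and Pla2g4a and Ptgis lower, but Ptgs2 was higher rather than lower, just past the threshold. Alox12 passed as higher in KO cells alone, though its difference between the genotypes did not pass. For Hpgd and Alox5 a rise was largely built into their being tested. Among the 3 genes whose response differed between the genotypes by the test of that difference, Ptgs2 differed most. The counts rest on edgeR's quasi-likelihood test with Benjamini-Hochberg adjustment over all 17416 genes, fitted across the 12 libraries.

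At an adjusted p under 0.05, 4 of the 10 genes were higher and 4 lower in WT senescent cells, where 29.2% of all genes tested were higher and 27.0% lower. With the added requirement of a log2 fold change over 1 in size, 2 were higher (Hpgd and Alox5, background 11.6%) and 0 lower (background 5.9%), also with DESeq2, and 0 of the 4 genes that were lower at an unadjusted p under 0.05 passed that fold. Hpgd and Alox5 reached the test through their senescent libraries: Alox5 had at most 5 counts in a control library and Hpgd over 10 counts in 2 of 6, so a difference was largely built into their being tested and their calls are a description only. In KO cells, 6 were higher (background 28.5%) and 2 lower (28.6%) by adjusted p alone. With the fold requirement 3 were higher (Hpgd, Alox5 and Alox12, background 11.2%) and 0 lower (7.58%), while 1 gene, Alox5ap, was lower past the fold at an unadjusted p under 0.05. These shares are of 10 chosen genes, and they are given as a description and not as a test of the list. For counts at an unadjusted p no share over all genes is given, here or below. The shares at an adjusted p are not their background. The median log2 fold change of the 10 genes was 0.26 in WT and 0.45 in KO cells, beside 0.02 and 0.00 over all genes tested. These medians include Hpgd and Alox5, whose rise was largely built in, so they too are a description only.

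**Figure D1:**
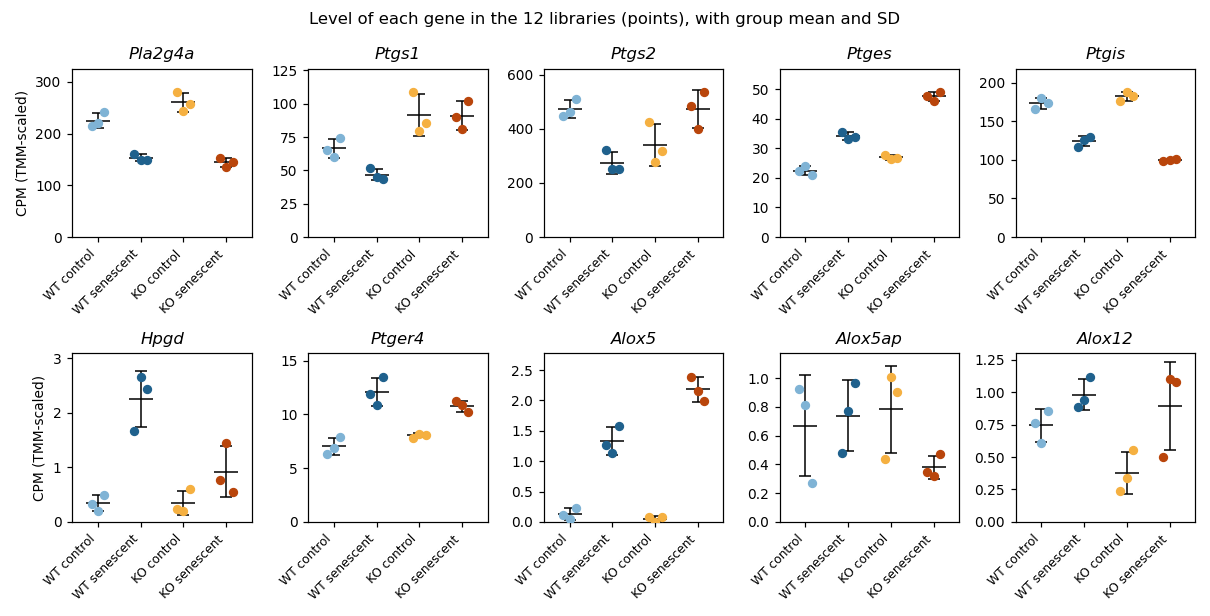
Level of the 10 genes in CPM (vertical axes, linear from 0, with a scale of their own) in the 3 libraries of each of the 4 groups (points), with the group mean and SD as bars. Ptgs2 was lower in every WT senescent library than in every WT control library, whereas in KO cells 2 of the 3 senescent libraries stood above all controls. Alox5 was close to 0 in all 6 control libraries and between 1.14 and 2.39 CPM in the senescent ones.

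Pla2g4a (ENSMUSG00000056220, GRCm38 chromosome 1, 149829618 to 149961290, minus strand) encodes cytosolic phospholipase A2, which frees arachidonic acid. WT control replicates 1 to 3 had 213.8, 220.2 and 241.2 CPM, and WT senescent replicates had 161.2, 149.3 and 149.6 CPM. In KO cells it was 280.7, 244.3 and 257.7 CPM in controls and 151.9, 135.5 and 145.0 CPM in senescent replicates. Every senescent library was thus below every control library in both genotypes, and KO controls stood above WT controls. The log2 fold change with senescence was −0.55 in WT (SE 0.06, adjusted p 1.41e-07) and −0.86 in KO cells (SE 0.06, adjusted p 1.7e-10). The KO response less the WT response, the interaction, was −0.30 (SE 0.09, adjusted p 0.0174), and this call was lost without WT control replicate 1 (adjusted p 0.059) or WT senescent replicate 1 (0.0571). KO controls exceeded WT controls by a log2 fold change of 0.21 (SE 0.06, adjusted p 0.0252), a call lost when any of WT control replicates 1 and 2 or KO control replicates 1 and 3 was left out (highest adjusted p 0.138, without WT control replicate 1).

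Ptgs1 (ENSMUSG00000047250, chromosome 2, 36230426 to 36252272, plus strand) encodes the constitutive cyclooxygenase. It had 65.3, 60.2 and 74.2 CPM in WT controls and 51.8, 45 and 43.8 CPM in WT senescent replicates. KO controls had 108.9, 79.4 and 85.8 CPM and KO senescent replicates 90.0, 80.8 and 102.3 CPM. Ptgs1 fell in WT cells without overlap between the groups, while the KO groups overlapped. The log2 fold change was −0.50 in WT (SE 0.14, adjusted p 0.00865) and 0.00 in KO cells (SE 0.13, adjusted p 0.982). The difference between these responses, 0.50 (SE 0.19), did not pass in this fit (adjusted p 0.0901) but passed with DESeq2 (0.53, adjusted p 0.00777), with no filter on low counts (0.0212) and without KO control replicate 1 (0.65, adjusted p 0.00581). In exons, 148 bases of Ptgs1 overlap Gm43621 on the other strand, and whether reads were counted by strand is not given in the sources used here.

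Ptgs2 (ENSMUSG00000032487, chromosome 1, 150100031 to 150108227, plus strand) encodes the inducible cyclooxygenase and was the most abundant of the 10 genes per exon length. WT control replicates had 447.1, 461.8 and 510.3 CPM and WT senescent replicates 322.1, 250.0 and 252.2 CPM. KO control replicates had 426.6, 276.3 and 316.7 CPM and KO senescent replicates 484.4, 398.2 and 536.6 CPM. In WT cells the groups were apart, with the senescent libraries lower, and in KO cells they overlapped, because control replicate 1 stood above senescent replicate 2. The log2 fold change with senescence was −0.78 in WT cells (SE 0.18, adjusted p 0.00531), which passed under every alternative tried (highest adjusted p 0.0217, without WT senescent replicate 2). In KO cells it was 0.48 (SE 0.18, adjusted p 0.0494), just inside the threshold. That KO call was lost with no filter on low counts (adjusted p 0.115), with only the KO libraries in the fit (0.0942) and on leaving out KO control replicate 2 (0.35, adjusted p 0.142), KO control replicate 3 (0.131), KO senescent replicate 1 (0.0944) or KO senescent replicate 3 (0.38, adjusted p 0.154). It was lost as well without any of the WT control replicates or WT senescent replicates 2 and 3, at adjusted p from 0.0583 to 0.0685.

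The interaction for Ptgs2 was 1.26 on the log2 scale (SE 0.26, adjusted p 0.00905), so that the ratio of senescent to control level was 2.40-fold higher in KO than in WT cells. It passed the test under every alternative tried, at values from 1.13 to 1.46 and adjusted p up to 0.0269. Ptgs2 was the 1 gene of the 10 called higher in the interaction (background 1.15%), and 0 were called lower (background 2.51%). At an unadjusted p under 0.05, 2 were higher past the fold (Ptgs2 and Alox5) and 0 lower, with no share over all genes given. DESeq2 called 1 gene. Without the fold requirement Ptgs2 was the 1 gene higher (background 9.24%), and Pla2g4a and Ptgis were the 2 lower (11.7%). In KO control cells Ptgs2 was lower than in every WT control library, with a log2 fold change of −0.48 (SE 0.18) that did not pass the test (adjusted p 0.133), although it did without KO control replicate 1 (−0.67, adjusted p 0.0259). In senescent cells the order was the reverse, with KO above WT by 0.78 (SE 0.18, adjusted p 0.0138). This call was lost without WT senescent replicate 2 (adjusted p 0.0549), WT senescent replicate 3 (0.0538) or KO senescent replicate 3 (0.0563).

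Because BMAL1 with its partner is known to bind the E-box CACGTG, the promoter windows of the 2 cyclooxygenases are shown, Ptgs2 because its response differed between the genotypes and Ptgs1 as the related gene for comparison. Each window runs from 250 bases before to 50 bases from the annotated start on, from RefSeq on GRCm38.p6, 5′ to 3′ on the gene's strand, with CACGTG in capitals where it occurs.
Ptgs2, chr1:150099781-150100080, plus strand: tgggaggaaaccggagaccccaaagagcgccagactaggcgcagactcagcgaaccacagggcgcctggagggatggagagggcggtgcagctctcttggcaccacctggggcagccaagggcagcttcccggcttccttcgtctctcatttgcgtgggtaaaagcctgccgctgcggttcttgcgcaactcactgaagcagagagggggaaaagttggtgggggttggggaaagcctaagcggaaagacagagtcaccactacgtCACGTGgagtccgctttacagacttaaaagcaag
Ptgs1, chr2:36230176-36230475, plus strand: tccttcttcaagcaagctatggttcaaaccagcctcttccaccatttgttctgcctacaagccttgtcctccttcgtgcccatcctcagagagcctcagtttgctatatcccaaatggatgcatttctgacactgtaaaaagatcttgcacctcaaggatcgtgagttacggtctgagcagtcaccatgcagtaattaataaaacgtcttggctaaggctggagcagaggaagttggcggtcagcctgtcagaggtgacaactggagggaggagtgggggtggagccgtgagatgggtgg

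The Ptgs2 window held 1 CACGTG, whose first base was base 17 counted from 1 at the annotated start. RefSeq windows were matched for 8 of the 10 genes (9 windows, since Pla2g4a had 2), and Ptgs2 was the 1 gene with that motif, which 7.15% of all 32851 mouse windows held. The AP-1 motif in its forms TGACTCA and TGAGTCA, which are each other's reverse complement and so cover both strands, was in 0 of the 9 windows and in 5.2% of all windows. The cyclic AMP element TGACGTCA, which reads the same on both strands, was in 0 of the 9 and in 1.79% of all. Only this full form was searched, and shorter or variant forms were not counted. In the Ptgs2 window the end of that element, CGTCA, is present and overlaps the CACGTG. None of these motifs in its full form contains another. A match is a description of letters and not of binding, and windows without a match say nothing of sites elsewhere.

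Counts per exon kilobase were used to set genes against each other within a library. Ptgs2 exceeded Ptgs1 by ratios of 5.81, 6.51 and 5.83 in WT controls and 5.27, 4.71 and 4.89 in WT senescent replicates. In KO cells the ratios were 3.32, 2.95 and 3.13 in controls and 4.57, 4.18 and 4.45 in senescent replicates. The ranges of the 4 groups did not overlap, with the ratio lower in WT senescent than WT control cells and higher in KO senescent than KO control cells. The ratio of Ptgs2 to the prostacyclin synthase Ptgis was 1.53 ± 0.106 (SD, n = 3) in WT controls, 1.25 ± 0.256 in WT senescent cells, 1.05 ± 0.273 in KO controls and 2.66 ± 0.391 in KO senescent cells. For this second ratio the KO senescent libraries, at 2.74, 2.23 and 2.99, stood above all others, and the WT senescent libraries overlapped both control groups. No test was run on the ratios.

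**Figure D2:**
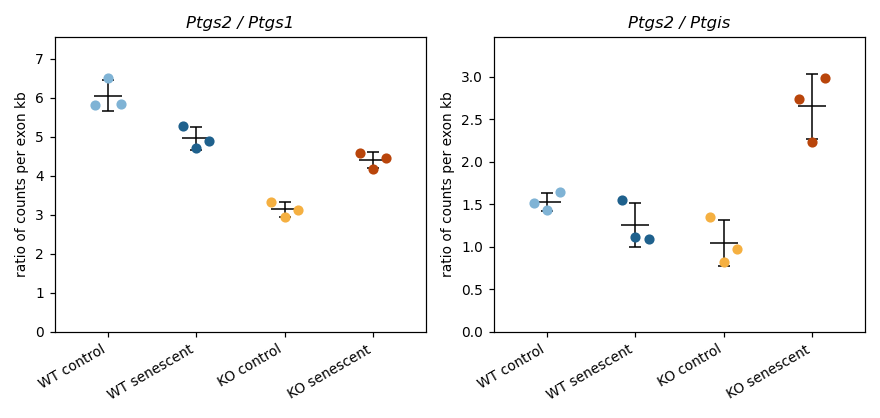
Ratio of Ptgs2 to Ptgs1 (left) and of Ptgs2 to Ptgis (right), both as counts per exon kilobase within each library (vertical axes, linear from 0), in the 3 libraries of each of the 4 groups (points), with mean and SD as bars. Ptgs2 over Ptgs1 lay between 5.81 and 6.51 in WT controls and between 2.95 and 3.32 in KO controls, and Ptgs2 over Ptgis was 2.23 or more only in KO senescent cells.

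Ptges (ENSMUSG00000050737, chromosome 2, 30889471 to 30929863, minus strand) encodes the inducible microsomal prostaglandin E synthase, which acts after the cyclooxygenases. It had 22.3, 24 and 21 CPM in WT controls, 35.6, 33.0 and 33.7 CPM in WT senescent, 27.8, 26.3 and 26.6 CPM in KO control and 47.6, 46.0 and 49.1 CPM in KO senescent replicates. The 4 groups did not overlap and ran in the order WT control, KO control, WT senescent, KO senescent. Ptges rose with senescence by a log2 fold change of 0.60 in WT (SE 0.07, adjusted p 1.45e-07) and 0.82 in KO cells (SE 0.07, adjusted p 7.49e-10), and the responses did not differ by the test (0.22, SE 0.09, adjusted p 0.106). It was higher in KO than in WT cells both in senescent cells (0.48, SE 0.06, adjusted p 1.31e-05) and in controls (0.26, SE 0.07, adjusted p 0.0152). The control difference was lost with only the control libraries in the fit (adjusted p 0.0603), without WT control replicate 1 (0.0562) and without WT control replicate 3 (0.0606).

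Ptgis (ENSMUSG00000017969, chromosome 2, 167191805 to 167240604, minus strand) encodes prostacyclin synthase, which uses the same intermediate as Ptges. It had 166.2, 180.4 and 174.1 CPM in WT controls, 116.6, 125.6 and 129.2 CPM in WT senescent, 176.7, 188.1 and 182.6 CPM in KO control and 98.9, 100.2 and 100.5 CPM in KO senescent replicates. The direction was thus opposite to that of Ptges, with every senescent library below every control library. The log2 fold change was −0.49 in WT (SE 0.05, adjusted p 6.53e-08) and −0.87 in KO cells (SE 0.05, adjusted p 7.69e-12). The fall was larger in KO cells (interaction −0.38, SE 0.07, adjusted p 0.000949), and this passed under every alternative tried (highest adjusted p 0.00628). Among senescent cells Ptgis was lower in those of KO mice (−0.31, SE 0.05, adjusted p 0.000163), whereas in controls the groups overlapped (0.07, SE 0.05, adjusted p 0.412). Endothelial cells, which also express Ptgis, were represented by 5 marker genes that summed to at most 8.57 CPM in any library. In exons, 156 bases of Ptgis overlap 1110018N20Rik on the other strand.

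Ptger4 (ENSMUSG00000039942, chromosome 15, 5206661 to 5244187, minus strand) encodes the EP4 receptor for prostaglandin E2. WT controls had 6.35, 6.84 and 7.86 CPM, and the level was 11.9, 10.9 and 13.5 CPM in WT senescent, 7.84, 8.18 and 8.11 CPM in KO control and 11.2, 10.9 and 10.2 CPM in KO senescent replicates. All 6 senescent libraries stood above all 6 control libraries. Ptger4 rose by 0.79 in WT (SE 0.12, adjusted p 6.83e-06) and 0.42 in KO cells (SE 0.12, adjusted p 0.00406). The interaction of −0.37 (SE 0.16) did not pass (adjusted p 0.122). Its exons share 1015 bases with the pseudogene Gm15937 and 82 with Ttc33, both on the other strand, so counts over those bases are uncertain.

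Hpgd (ENSMUSG00000031613, chromosome 8, 56294585 to 56321043, plus strand) encodes the dehydrogenase that begins the breakdown of prostaglandins. It was a low gene, with 8, 5 and 11 counts in WT controls (0.322, 0.204 and 0.497 CPM) and 49, 79 and 63 counts in WT senescent replicates (1.67, 2.66 and 2.43 CPM). KO cells had 6, 6 and 14 counts in controls (0.240, 0.202 and 0.601 CPM) and 20, 41 and 16 in senescent replicates (0.772, 1.45 and 0.540 CPM). The WT groups were well apart, while KO senescent replicate 3 lay below KO control replicate 3. Hpgd rose by 2.72 in WT cells (SE 0.44, adjusted p 2.16e-05), the second largest change of the 10 genes there. This value and the KO value are given as a description, since Hpgd reached the test largely through its senescent libraries. In KO cells it rose by 1.43 (SE 0.47, adjusted p 0.0125), a call lost without KO control replicate 2 (1.14, adjusted p 0.0695) or KO senescent replicate 2 (0.94, adjusted p 0.122). The interaction of −1.29 (SE 0.67) did not pass (adjusted p 0.191). Between genotypes, KO senescent cells were below WT senescent cells by a log2 fold change of −1.28 (SE 0.38, adjusted p 0.0168), without overlap, and the call was lost without WT senescent replicate 2 (adjusted p 0.0868), WT senescent replicate 3 (0.0639), KO senescent replicate 1 (0.0675) or KO senescent replicate 3 (0.0935).

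Alox5 (ENSMUSG00000025701, chromosome 6, 116410077 to 116461178, minus strand) encodes 5-lipoxygenase, the first enzyme of leukotriene synthesis. It was counted 3, 1 and 5 times in WT controls and 2, 0 and 2 times in KO controls, so that 5 of these 6 libraries were at or under the floor of 3 counts, and the count of 0 in KO control replicate 2 allows up to 0.101 CPM. The senescent libraries had 37, 34 and 41 counts in WT (1.26, 1.14 and 1.58 CPM) and 62, 61 and 59 counts in KO cells (2.39, 2.16 and 1.99 CPM). Every senescent library was far above every control library, and KO senescent libraries were above WT senescent ones. Summed over 3 libraries and set against library size, the level in WT senescent cells was 10.5 times that in controls (112 against 9 counts, exact 95% Clopper-Pearson interval 5.33 to 23.5). For KO cells the same ratio was 42.4 (182 against 4 counts, interval 16.3 to 157.2), and these intervals cover counting error only. In the fit, the log2 fold changes were 3.34 (SE 0.48, adjusted p 4.16e-06) in WT and 5.28 (SE 0.53, adjusted p 2.32e-08) in KO cells, given as a description, since the gene reached the test through the libraries where it is high. As the control counts are so few, the size of these changes depends on the small count the fit adds. The interaction of 1.93 (SE 0.88, adjusted p 0.132) and the KO to WT difference in senescent cells of 0.72 (SE 0.32, adjusted p 0.119) did not pass, though the latter did with only the senescent libraries in the fit (adjusted p 0.0294).

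Alox5ap (ENSMUSG00000060063, chromosome 5, 149264767 to 149288153, plus strand) encodes FLAP, the membrane protein that presents arachidonic acid to 5-lipoxygenase. None of its changes passed the test with all libraries. It had 23, 20 and 6 counts in WT controls, 14, 23 and 25 in WT senescent, 11, 30 and 21 in KO control and 9, 9 and 14 in KO senescent replicates, all groups overlapping except that every KO senescent library was below every WT senescent one in CPM. Log2 fold changes with senescence were 0.12 in WT (SE 0.44, adjusted p 0.844) and −1.04 in KO cells (SE 0.47, adjusted p 0.0642). The KO value passed without WT control replicate 3 (adjusted p 0.0361) or KO control replicate 1 (−1.32, adjusted p 0.0235). The difference between the responses was −1.16 (SE 0.65, adjusted p 0.226). In exons, 189 bases of Alox5ap overlap the antisense gene Gm19719.

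Alox12 (ENSMUSG00000000320, chromosome 11, 70241457 to 70255353, minus strand) encodes the platelet-type 12-lipoxygenase. Its counts were 19, 15 and 19 in WT controls (0.764, 0.611 and 0.858 CPM) and 26, 28 and 29 in WT senescent replicates (0.884, 0.943 and 1.12 CPM), the ranges lying next to each other without overlap. KO controls had 6, 10 and 13 counts (0.240, 0.337 and 0.558 CPM) and KO senescent replicates 13, 31 and 32 (0.502, 1.10 and 1.08 CPM). The highest KO control overlapped the lowest KO senescent library, and KO controls were below all WT controls. Alox12 rose in KO cells by 1.25 (SE 0.41, adjusted p 0.0123), and this call was lost without KO control replicate 1 (1.03, adjusted p 0.0575), KO senescent replicate 2 (1.08, adjusted p 0.0544) or KO senescent replicate 3 (1.10, adjusted p 0.0523). In WT cells the value was 0.40 (SE 0.37, adjusted p 0.384), and the difference between the genotypes, 0.86 (SE 0.56), did not pass (adjusted p 0.305). The study picked Alox12 from these same libraries as a gene changed in KO cells only, so its KO call is not independent evidence of that. KO and WT senescent cells differed by −0.12 (SE 0.36, adjusted p 0.845).

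Markers of blood cells, in which these lipoxygenases are best known, were low beside the fibroblast markers in all libraries. The macrophage and platelet sums were nevertheless above the level of Alox5, Alox5ap or Alox12 in any library. The 8 macrophage genes summed to 10.2 to 16.2 CPM in WT control, 13.7 to 16.6 CPM in WT senescent, 9.20 to 13.3 CPM in KO control and 10.4 to 15.5 CPM in KO senescent libraries, and 5 of the 8 had a lower mean in WT senescent and 2 of the 8 in KO senescent cells. Lyz2 moved with Alox5, at 0.0451 to 0.764 CPM in WT control and 1.33 to 2.59 CPM in WT senescent, and 0.172 to 0.202 CPM in KO control and 2.33 to 3.13 CPM in KO senescent libraries. Cd68 was higher in WT senescent (2.93 to 3.09 CPM) than in WT control libraries (1.53 to 2.0 CPM) but overlapped in KO cells. Of the 8 macrophage genes, the 3 with the lowest maxima were Adgre1, Itgam and Tyrobp, at most 0.177, 0.39 and 0.135 CPM in any library. Exons of Itgam overlap another counted gene on the same strand, so its low count is uncertain. Of the 4 mast cell genes, 3 (Cpa3, Mcpt4 and Fcer1a) had 3 counts or fewer in every library, and the list summed to at most 0.269 CPM. The 4 platelet and megakaryocyte genes summed to 7.0 to 9.12 CPM in WT control, 6.56 to 7.54 CPM in WT senescent, 8.89 to 9.84 CPM in KO control and 6.17 to 7.06 CPM in KO senescent libraries. The summed macrophage ranges, of which Ptprc held the largest share, overlapped between control and senescent libraries of each genotype. The platelet sum was lower in KO senescent than in KO control libraries, but only 2 of its 4 genes had a lower mean there. In WT senescent cells 1 of the 4 had a lower mean. The part of these blood cell markers in the lipoxygenase results was not tested.

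**Figure D3:**
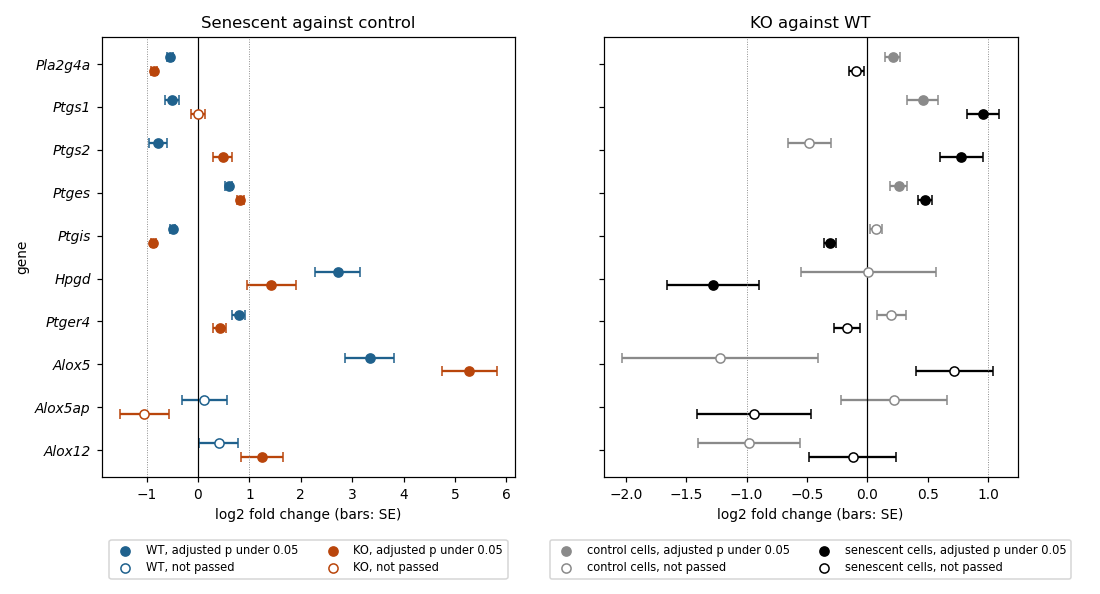
Log2 fold changes of the 10 genes (horizontal axes) with SE as bars, for senescent against control cells in WT and KO (left) and for KO against WT in control and senescent cells (right). Filled points passed an adjusted p under 0.05, open points did not, and dotted lines mark a log2 fold change of 1 in size. Ptgs2 lay at −0.78 in WT and 0.48 in KO cells on the left, and Ptgs1, Ptgs2 and Ptges were the 3 genes that passed as higher in KO senescent cells on the right, where Alox5, at 0.72, did not pass.

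In direct comparisons of the genotypes, the genes that passed the test as higher in KO senescent than in WT senescent cells were the synthesis genes Ptgs1, Ptgs2 and Ptges. Those that passed as lower were the synthase Ptgis and the breakdown gene Hpgd. The Ptgs2 and Hpgd calls were each lost on leaving out some single libraries, as given above. Ptgs1 had the largest of the increases, with a log2 fold change of 0.96 (SE 0.13, adjusted p 0.000455), and it passed under every alternative tried (highest adjusted p 0.00324). These were 3 genes higher (background 11.9%) and 2 lower (11.8%) of the 10. With the fold requirement 0 were higher (background 1.29%) and 1, Hpgd, was lower (2.19%), while 4 genes were higher at an unadjusted p under 0.05. In controls, Pla2g4a, Ptgs1 and Ptges were the 3 genes higher (background 8.07%) and 0 were lower (4.96%). None of the 10 genes was called in controls with the fold requirement, by edgeR or by DESeq2, where 1.36% of all genes were called higher and 1.18% lower. At an unadjusted p under 0.05, 3 genes were higher in KO controls and 2, Ptgs2 and Alox12, lower. For the counts at an unadjusted p in either comparison, no share over all genes is given. The control difference of Ptgs1 was 0.46 (SE 0.13, adjusted p 0.0483), and 9 of its 18 alternatives took it over the threshold, the highest adjusted p being 0.146 without WT control replicate 2.

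Per exon length, the 10 genes kept a similar order in the 4 groups. Ptgs2 was first in all of them, with a mean of 103.3 CPM per kilobase in WT control, 60.0 in WT senescent, 74.2 in KO control and 103.3 in KO senescent cells, followed by Ptgis with 67.6, 48.2, 71.1 and 38.9. These neighbours did not overlap except in KO controls. Pla2g4a, Ptgs1, Ptges and Ptger4 followed in that order without overlap between neighbours, apart from KO senescent cells, where Ptgs1 (23.4 ± 2.77) and Pla2g4a (22.6 ± 1.29) overlapped. Below Ptger4, at 1.06 to 1.82 CPM per kilobase, came Hpgd, Alox5, Alox5ap and Alox12. Of these, Alox5 was last in both control groups (0.0314 in WT and 0.0135 in KO cells) and Alox12 was last in both senescent groups (0.240 in WT and 0.219 in KO cells), where it overlapped its neighbour Alox5ap in KO cells and lay below its neighbour Alox5 without overlap in WT cells. Leaving out the 4 low genes by a minimum mean of 1 CPM removed every call of the list with the fold requirement except that of Ptgs2 in the interaction.

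A wider list held 45 other genes of the pathway, of which 44 were matched and 32 tested. In WT senescent cells 14 of the 32 were higher and 7 lower by adjusted p (background 29.2% and 27.0%), and 8 and 2 with the fold requirement (11.6% and 5.9%). In KO cells the counts were 16 higher and 5 lower (28.5% and 28.6%), and 7 and 2 with the fold (11.2% and 7.58%). Of the genes called higher with the fold, Akr1c18, Ptger3, Pla2g2e, Tbxa2r, Aloxe3 and Ltc4s had means of 0.015 to 0.264 CPM in WT controls. In KO controls Akr1c18, Ptger3, Pla2g2e, Ptger2 and Aloxe3 had 0.0224 to 0.175 CPM. These genes reached the test through groups where they are higher, so a rise was largely built in. The counts and the median below are therefore a description only. In the interaction 6 were higher and 5 lower (9.24% and 11.7%), of which 0 and 3 passed the fold in edgeR (1.15% and 2.51%), where 1 and 3 did so at an unadjusted p under 0.05. KO controls had 4 higher and 0 lower (8.07% and 4.96%), or 1 and 0 with the fold (1.36% and 1.18%), against 6 and 7 (1 and 1 with the fold) at an unadjusted p under 0.05. No share over all genes is given for the counts at an unadjusted p. KO senescent cells had 7 higher and 3 lower (11.9% and 11.8%), or 1 and 1 with the fold (1.29% and 2.19%). The median log2 fold change with senescence was 0.27 in WT and 0.31 in KO cells over the 32 genes, beside 0.02 and 0.00 over all genes tested. Of the genes called in any comparison, 7 had a mean of at least 1 CPM and are described here, and 6 lay below that mean.

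Slco2a1 (chromosome 9, 102988712 to 103096002) encodes the transporter that takes prostaglandins into cells for breakdown. It had 174.7, 155.3 and 191.6 CPM in WT controls, 74.8, 63.2 and 71.9 CPM in WT senescent, 160.8, 128.5 and 135.6 CPM in KO control and 114.8, 101.2 and 118.5 CPM in KO senescent replicates. The fall was −1.31 in WT (SE 0.10, adjusted p 8.69e-08) and −0.34 in KO cells (SE 0.10, adjusted p 0.00900), with an interaction of 0.97 (SE 0.14, adjusted p 0.000443). The senescent groups did not overlap, and KO senescent cells were higher by 0.67 (SE 0.10, adjusted p 0.000297). Faah (chromosome 4, 115967145 to 116017926), which hydrolyses anandamide and so releases arachidonic acid, went the other way. It had 20.4, 24.4 and 21.1 CPM in WT controls, 23.0, 30.5 and 30.3 CPM in WT senescent, 10.2, 17.5 and 15.6 CPM in KO control and 5.02, 7.27 and 3.99 CPM in KO senescent replicates. Faah fell in KO cells by a log2 fold change of −1.42 (SE 0.26, adjusted p 0.000789) against 0.34 in WT cells (SE 0.22, adjusted p 0.210), an interaction of −1.76 (SE 0.34, adjusted p 0.00498), and KO senescent cells were below WT senescent cells by −2.36 (SE 0.25, adjusted p 8.19e-05).

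Among the receptors, Ptgfr (chromosome 3, 151796502 to 151837630), the receptor for prostaglandin F2α, had 10.1, 10.1 and 7.63 CPM in WT controls and 6.63, 7.24 and 7.60 CPM in WT senescent replicates. It had 10.8, 16.1 and 12.0 CPM in KO controls and 5.02, 6.31 and 3.31 CPM in KO senescent replicates. Ptgfr fell in KO cells (−1.41, SE 0.20, adjusted p 1.45e-05), the WT value was −0.38 (SE 0.20, adjusted p 0.116) and the interaction was −1.04 (SE 0.28, adjusted p 0.0156). Tbxa2r (chromosome 10, 81328731 to 81335172), the thromboxane receptor, differed already between the controls, with 3, 7 and 5 counts in WT and 31, 48 and 25 counts in KO cells (log2 fold change 2.62, SE 0.41, adjusted p 0.000128). With senescence its counts were 27, 32 and 40 in WT and 36, 54 and 37 in KO cells. Tbxa2r thus rose in WT cells (2.46, SE 0.41, adjusted p 2.85e-05), to a level that overlapped the KO libraries. The KO groups overlapped each other (0.20, SE 0.31, adjusted p 0.596), and the interaction was −2.26 (SE 0.52, adjusted p 0.00394). As its WT controls were so low, the gene reached the test through its other groups. The control difference, the WT rise and the interaction are therefore a description only.

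The leukotriene B4 receptors Ltb4r1 and Ltb4r2, neighbours on chromosome 14, both rose with senescence. Ltb4r1 went from 0.580 ± 0.311 to 2.09 ± 0.130 CPM in WT (SD, n = 3; log2 fold change 1.83, adjusted p 0.000330) and from 0.621 ± 0.284 to 1.36 ± 0.468 CPM in KO cells (1.11, adjusted p 0.0169). The KO call of Ltb4r1 was lost without KO control replicate 3 (adjusted p 0.0904) or KO senescent replicate 3 (0.0977). Ltb4r2 went from 0.586 ± 0.0928 to 2.06 ± 0.256 CPM in WT (1.80, adjusted p 3.55e-05) and from 0.732 ± 0.191 to 1.52 ± 0.364 CPM in KO cells (1.07, adjusted p 0.00434). Their genotype interactions did not pass (adjusted p 0.391 and 0.259). Ptgds (chromosome 2, 25466709 to 25470046), a prostaglandin D synthase, fell in WT cells from 9.77, 10.1 and 3.07 CPM to 1.29, 1.25 and 0.926 CPM (−2.72, SE 0.48, adjusted p 0.000529). In KO cells Ptgds went from 4.24, 3.47 and 2.66 CPM to 0.733, 1.81 and 2.20 CPM (−1.12, SE 0.47, adjusted p 0.0661), and WT control replicate 3 stood apart from the other WT controls. The KO fall of Ptgds passed with no filter on low counts (adjusted p 0.0159), with only the KO libraries in the fit (0.012) and without WT control replicate 3 (0.00197). Without that library its interaction, 1.60 (adjusted p 0.128) with all libraries, was 1.97 (adjusted p 0.00263), and KO controls were below WT controls by −1.52 (adjusted p 0.000656) rather than −1.14 (0.116).

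**Figure D4:**
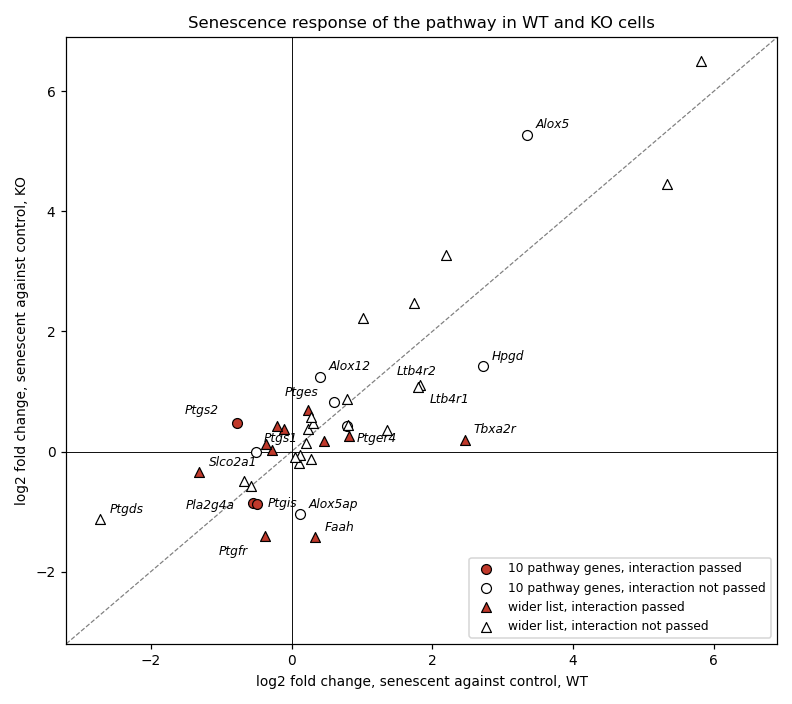
Log2 fold change of senescent against control cells in WT (horizontal axis) and KO cells (vertical axis) for the 10 pathway genes (circles) and the 32 tested genes of the wider list (triangles), with equal changes on the dashed line. Red symbols passed the interaction test at an adjusted p under 0.05, and names mark the 10 genes and the 7 described genes of the wider list. Ptgs2, at −0.78 and 0.48, changed in opposite directions, and Tbxa2r, at 2.46 and 0.20, and Slco2a1, at −1.31 and −0.34, lay nearer to 0 in KO than in WT cells.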

How the data were processed

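Poly(A) RNA-seq libraries of 12 MAF cultures were analysed. The authors deposited raw read counts per gene, as whole numbers, in 1 table per genotype. Per the labels and methods, the authors demultiplexed with bcl2fastq 2.17, trimmed with Trimmomatic 0.36, mapped with STAR 2.5.2b to GRCm38 and counted uniquely mapped reads over exons with featureCounts, so reads shared with near-identical copies were dropped. The annotation release and the use of strand in counting are not given in the sources used here.

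Of 49315 gene identifiers, 49056 matched GENCODE M21 symbols, and 97 of 98 listed symbols were found. Genes were filtered with filterByExpr over the 4 groups (17416 kept), scaled by TMM and tested with edgeR 4.0.16 (limma 3.58.1, R 4.3.3) in a robust quasi-likelihood fit with 1 mean per group over all 12 libraries. Benjamini-Hochberg adjustment ran over all genes tested in each of 5 comparisons: senescence in WT, senescence in KO, their interaction, and KO against WT in control and in senescent cells. A gene was called at an adjusted p under 0.05 with a log2 fold change over 1 in size, the thresholds of the study's methods. The study's results state a different P threshold for these libraries, which was not used here. SE was the fold change divided by the root of F. The filter let Alox5 pass only through its senescent libraries, and Hpgd largely through them. Low genes of the wider list also passed through the groups where they are higher. The script was tested on simulated data.

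Named were the 10 genes whatever their values, genes of the wider list called at least once with a mean of at least 1 CPM, Arntl and Cdkn1a. The 10 genes, the wider list and the marker lists (fibroblast, chondrocyte, smooth muscle, keratinocyte, endothelium, macrophage, mast cell, platelet) were chosen with earlier results of these data known. Alternatives were DESeq2 1.42.0, its size factors, other filters, fits of the compared groups alone, replicate blocks, no fold threshold and leaving out each library. Total counts were 23923030 to 31736083. Intervals cover counting error only, because they rest on counts summed over the libraries of a group and leave out the spread between libraries. Reads carried no molecular identifiers, so duplicates of 1 molecule could not be told apart.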

Additional observations from a re-analysis of the deposited data

Results flagged for a closer look

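The senescence response differed between KO and WT cells by its own test, the interaction in edgeR, for 3 of the 10 genes and for 11 of the 32 tested genes of the wider list, where 9.24% of all genes passed as higher and 11.7% as lower. Of the 11, 4 were among the 7 genes described by name, which were chosen for being called in some comparison. The differences, as the KO log2 fold change less the WT one, were 1.26 for Ptgs2, −0.30 for Pla2g4a and −0.38 for Ptgis. They were −1.76 for Faah, 0.97 for Slco2a1, −1.04 for Ptgfr and −2.26 for Tbxa2r. The Tbxa2r value is a description only, since its WT controls had a mean of 0.21 CPM. Ptgs2 fell in WT and rose in KO cells, each past the test, its KO rise only just. The transporter Abcc4, singled out after its values were seen, did the same, with −0.21 in WT (adjusted p 0.0368), 0.43 in KO cells (0.000103) and an interaction of 0.64 (0.000562).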

How the results depend on the processing

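Of 900 recomputed values of the 10 genes, 833 kept their direction and their side of the threshold, 41 lost significance, 9 gained it and 17 changed sign. Many of the 900 left out a library of a group not compared, where the fold change could hardly move. Values that passed in neither fit also count as kept. The 833 is therefore no measure of how stable the calls were. A minimum mean of 1 CPM, which leaves fewer genes to test, gave 0 called genes of the 10 with senescence in WT, 0 in KO and 0 between senescent genotypes, and 5, 4 and 1 of the wider list. No fold threshold gave 8, 8, 3, 3 and 5 of the 10 (WT, KO, interaction, controls, senescent cells). No filter gave 2 called wider genes in controls. Leaving out 1 library gave 1 to 4 called of the 10 in KO cells (1 without KO senescent replicate 2) and 0 to 2 between senescent genotypes (0 without WT senescent replicate 2 or 3 or KO senescent replicate 3), and 1 to 2 wider genes in controls (2 without WT control replicate 2 or 3). Of the values that changed sign, that of Ptgs1 in KO cells was 0.01 with DESeq2, 0.01 with its size factors, 0.04 with a minimum mean of 1 CPM, and −0.10 to 0.14 over left-out libraries. Over the same omissions, Alox5ap in WT ran from −0.24 to 0.41, and KO against WT controls from −0.61 to 0.35 for Hpgd, −0.14 to 0.52 for Alox5ap and −0.18 to 0.64 for Ltb4r1. Alox12 between senescent genotypes ran from −0.29 to 0.19. The causes were not tested. No share of all genes is given for the counts of calls, apart from no fold threshold, whose shares stand above. Whether the list moved or all genes did is therefore not shown.

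Replicate numbers did not pair the libraries: same-numbered libraries of different groups had deviations correlated at −0.125 to 0.127, and in 12 of 36 cases the best match in another group had the same number. With a replicate block the counts of calls among the 10 were 2 in WT, 3 in KO, 1 in the interaction, 0 in controls and 1 in senescent cells, Hpgd between controls was −0.01, and Ptgs1 in KO cells was 0.00 with the block within each genotype. No share of all genes called with a block is given beside these counts. The Ptgs1 interaction (0.50) passed with the block across the groups (adjusted p 0.0204) and within each genotype (0.0327).

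Counts limit the low genes: Hpgd, Alox5, Alox5ap and Alox12 rested on 4 to 191 counts a group, and the SE of their interaction was 0.56 to 0.88 on the log2 scale, against 0.07 to 0.26 for the other 6 genes.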
